A study of Mus musculus with 2 samples.

Results

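The expression of 10 genes of the YAP and TEAD pathway was followed from day 0 to day 3 of induced adipogenesis in embryonic fibroblasts of the mouse, labelled as knockout for Xbp1. They comprised the coactivator genes Yap1 and Wwtr1 (which encodes TAZ), the DNA-binding partner Tead1, the inhibitory kinase gene Lats2, and 6 genes widely used as readouts of the pathway: Ankrd1, Thbs1, Cyr61 (now Ccn1), Ctgf (now Ccn2), Amotl2 and Axl. They were chosen by gene name, with the day 3 against day 0 differences of these same arrays already known, so those differences are given as a description and support nothing by themselves. All 10 were among the 16637 named genes of the array, where 16 of 29922 gene probes carried their names.

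The groups were a single array of cells at confluence (day 0) and a single array of cells on day 3. Both came from fibroblasts of 1 genotype, Xbp1 knockout, and no cells with working Xbp1 are part of the comparison. Induction ran for 72 h with 10 µg/ml insulin, 5 µM troglitazone (a PPARγ agonist), 5 µM DXM and 0.25 mM IBMX (a phosphodiesterase inhibitor that raises cAMP). Xbp1 itself gave normalized signals of 20936 and 13561 by its only probe, whose place relative to the deleted part is unknown here, so it does not check the label. The labels do not say whether the cells were a clone or a pool. With 1 sample a day no test could be run. The only error available was the scatter between control features printed 5 or 6 times on each array, which leaves out variation between cultures, RNA preparations and hybridizations. Here it is the SD of log2 raw intensities between copies within an array, scaled by the square root of 2 to a difference between 2 samples. A probe took the value for the mean log2 normalized signal of both days. Pooled over features, it was 0.61 for log2 signals between 6 and 8 and 0.78 between 8 and 10. Between 10 and 12 it was 0.57, and between 12 and 16 0.88. Taken as the median over features, which weighs noisy features less, it was smaller: 0.42, 0.44, 0.39 and 0.38. A fall in the share of cells expressing a gene and a fall in RNA per cell cannot be told apart in such bulk samples.

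YAP and TAZ are paired coactivators of the Hippo pathway. When the kinase cascade of MST and LATS is active, they are phosphorylated and held in the cytoplasm or degraded; when it is not, they enter the nucleus and act through TEAD factors. Their activity is known to depend on cell density, actin tension and matrix stiffness, and TAZ is also known as a repressor of PPARγ in mesenchymal cells. Messenger RNA levels do not report phosphorylation or location of either protein.

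The promoters of the members hold a sequence feature that bears on TEAD, and since most members are known TEAD targets it is background to the values rather than a finding. RefSeq promoters (assembly GRCm38.p6, from 250 bases before to 50 bases from the transcription start on) were matched by symbol for 7 of the 10 genes: Yap1, Wwtr1, Lats2, Ankrd1, Cyr61, Amotl2 and Axl. Each of the 7 held the core letters of the TEAD motif, GGAATG, on one strand or the other in at least 1 promoter. Of all 32851 promoters of that length, 14.7% held it, and of the 27025 genes with a promoter 16.6% did. Among genes detected on these arrays the share was 17.5% of 877 that were at least 2-fold lower on day 3, 15.2% of 1076 that were at least 2-fold higher and 14.2% of the 6695 others, and the differences between these shares were not tested. A match of 6 letters is a description of the sequence and does not show binding.

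The promoters of the members that had an entry and at least 1 probe past 2-fold are shown, since these carry the largest differences for which a sequence was at hand. Capitals mark the TEAD core, read as GGAATG on the gene's strand or CATTCC on the other. No marked copy overlapped another motif searched.
Ankrd1, chr19:36119795-36120094, minus strand: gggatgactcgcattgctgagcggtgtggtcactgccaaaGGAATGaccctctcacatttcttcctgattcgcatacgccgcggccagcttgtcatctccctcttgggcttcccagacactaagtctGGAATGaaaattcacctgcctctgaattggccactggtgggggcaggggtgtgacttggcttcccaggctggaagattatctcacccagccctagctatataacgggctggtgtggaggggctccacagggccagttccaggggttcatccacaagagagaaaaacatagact
Cyr61 (Ccn1), chr3:145649936-145650235, minus strand: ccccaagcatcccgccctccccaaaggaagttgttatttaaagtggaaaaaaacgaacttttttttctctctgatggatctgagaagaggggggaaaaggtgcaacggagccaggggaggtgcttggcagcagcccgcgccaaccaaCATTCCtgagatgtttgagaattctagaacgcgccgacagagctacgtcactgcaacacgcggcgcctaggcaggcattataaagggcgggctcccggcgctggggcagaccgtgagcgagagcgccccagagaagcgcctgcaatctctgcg
Lats2, chr14:57746074-57746373, minus strand: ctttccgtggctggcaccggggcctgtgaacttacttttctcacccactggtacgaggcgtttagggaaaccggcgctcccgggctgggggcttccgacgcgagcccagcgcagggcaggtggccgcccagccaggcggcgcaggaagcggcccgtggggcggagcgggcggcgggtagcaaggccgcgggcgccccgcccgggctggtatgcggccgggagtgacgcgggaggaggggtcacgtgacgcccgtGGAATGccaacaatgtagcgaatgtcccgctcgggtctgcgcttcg
Wwtr1, chr3:57575861-57576160, minus strand: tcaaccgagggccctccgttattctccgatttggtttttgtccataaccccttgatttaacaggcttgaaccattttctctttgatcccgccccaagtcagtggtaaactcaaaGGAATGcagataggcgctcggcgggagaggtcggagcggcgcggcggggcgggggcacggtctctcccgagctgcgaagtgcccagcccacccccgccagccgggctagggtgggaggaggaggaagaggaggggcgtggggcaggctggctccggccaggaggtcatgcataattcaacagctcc

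Ankrd1 was the only one of the 7 with 2 copies in a promoter, which begin 210 and 123 bases before the start and have the same orientation. In Cyr61 the copy lies on the opposite strand and begins 103 bases before the start. The copy of Lats2 begins at base 5 of the transcript, and the promoter of its other annotated start held none. The 2 annotated starts of Wwtr1 overlap and share a copy, 136 or 170 bases upstream. In Yap1, Axl and Amotl2 the copies begin 141, 233 and 65 bases before the start. No promoter of the 7 held the AP-1 letters TGANTCA (found in 9.0% of genes) or a CArG box, the element bound by SRF (1.8% of genes), which says only that those letters are not in these windows.

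**Figure D1:**
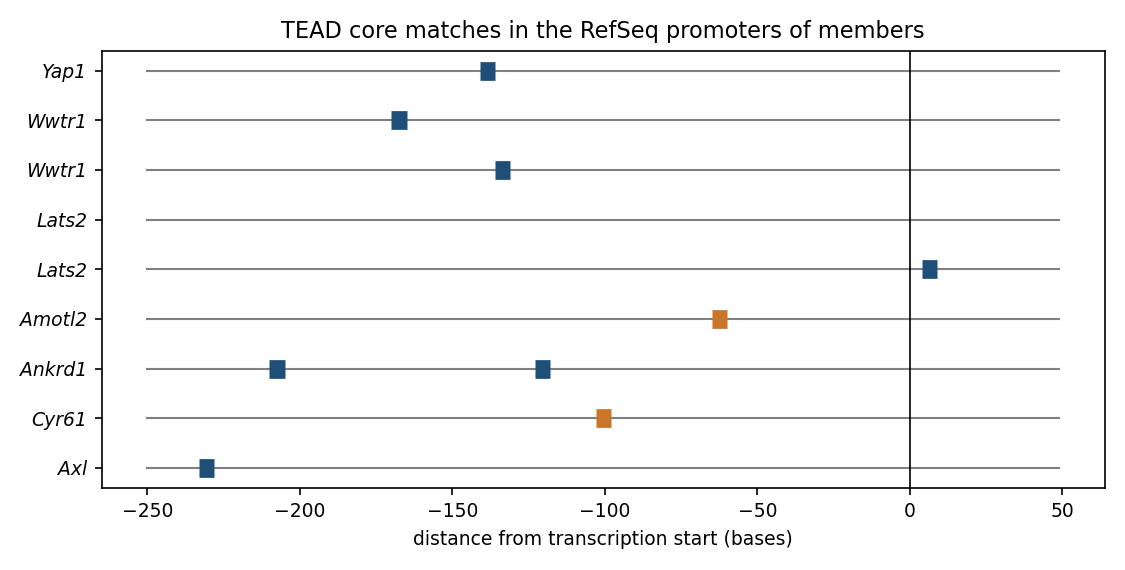
Positions of the TEAD core in the 9 RefSeq promoters of 7 members, drawn as distance from the transcription start in bases (x axis), with a line for each annotated start. Blue marks the gene's own strand and orange the other; Ankrd1 has 2 copies, at 210 and 123 bases before the start, and 1 of the 2 Lats2 promoters has none.

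The coactivator genes were detected on both days, as was Tead1 by 1 of its 2 probes, and none of the 3 was 2-fold lower on day 3. Signals below are quantile-normalized intensities. A gene was taken as detected above 122, the median of all gene probes, on at least 1 day. Under median scaling over all gene probes or no normalization, differences are relative to the median of all detected genes, unless given as read. Yap1, which had a single probe, read 12692.5 on day 0 and 14000 on day 3. Its log2 difference (day 3 minus day 0) of 0.14 is well inside the pooled repeat-spot SD of 0.88. Its sign depended on the scaling, with a range of -0.11 to 0.21 over the settings tried. Yap1 was therefore near level between the days.

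Wwtr1 had 3 probes that gave different sizes. The brightest read 29627.5 on day 0 and 65475.5 on day 3, where it was saturated, so it was at least 2.21-fold higher on day 3 by that probe. The others read 1426 and 1608.5 (0.17) and 1205.5 and 1640.5 (0.44), both inside their pooled SD of 0.57, and the second of them outside the median SD of 0.39. All 3 probes were higher on day 3, and only the saturated probe passed 2-fold. Relative to the median of all genes, its difference was at least 0.77 under median scaling and at least 0.70 with no normalization, bounds that do not settle whether it passed 2-fold.

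Tead1 gave a reading that rests on a probe name. The probe that the platform annotation names by the clone 2610024B07Rik, a synonym of Tead1, read 7968 and 12066.5 (0.60, inside the pooled SD of 0.88 and outside the median SD of 0.38). The probe named Tead1 itself had raw intensities of -4 on day 0 and 2 on day 3, no more than the empty spots, whose 95th percentiles were 7 and 9. Without the clone-named probe Tead1 would not count as detected on either day. Of its paralogs, which encode the other TEAD factors, Tead2 read 2408.5 and 3208.5 (0.41), Tead3 read 214 and 186 (-0.20, with the sign turning under other scalings) and Tead4 did not pass 122 on either day (24 and 7.5). No TEAD gene differed by 2-fold above the threshold.

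**Figure D2:**
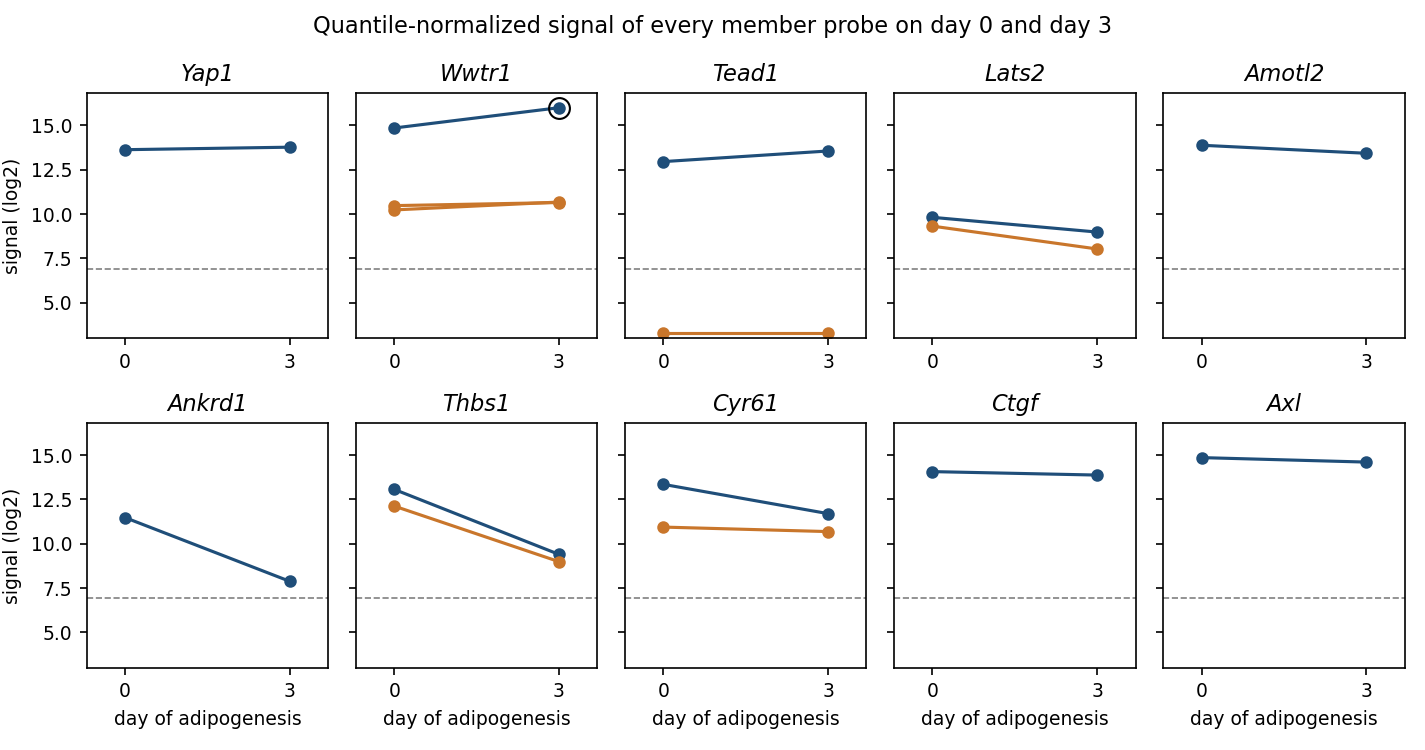
Quantile-normalized signal (log2, y axis) of every probe of the 10 genes on day 0 and day 3 (x axis); blue is the brightest probe of a gene, orange the others, the dashed line the detection threshold at 6.93, and the open circle a saturated signal. Ankrd1 and both Thbs1 probes drop steeply, while Yap1, Ctgf and Axl are nearly flat and the second Tead1 probe sits at the floor of 10.

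The target genes split into a pair that was far lower on day 3, intermediate cases, and others that were close to level. By the brightest probe of each gene, 3 of the 10 detected members were at least 2-fold lower (Thbs1, Ankrd1 and Cyr61) and 1 was at least 2-fold higher (Wwtr1). By the dimmest detected probe Lats2 (-1.29) took the place of Cyr61 (-0.25), and 0 were 2-fold higher. The background was 10.3% of 10656 detected genes lower and 12.8% higher, or 8.51% and 10.2% when each signal below 122 was raised to 122, which left the members' counts as they were. Since the same differences were known when the members were chosen, nothing is read from that comparison. The median difference of the members was -0.35, and that of all detected genes was 0.03.

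Thbs1 encodes thrombospondin-1, a secreted matrix glycoprotein that can activate latent TGF-β. Its brighter probe read 8550.5 on day 0 and 674 on day 3, 12.7-fold lower (-3.67). The second read 4452 and 507.5, 8.77-fold lower (-3.13). Both probes stayed above the detection threshold on day 3. Both differences exceed the pooled SD of 0.57 at their mean signal several times over, and also the largest pooled SD of 0.88. Among the 9434 genes above the threshold on both days Thbs1 had the lowest difference; genes under the threshold on 1 day have only a bound and were left out of that order.

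Ankrd1 encodes a cardiac ankyrin repeat protein that is found in the sarcomere and the nucleus of muscle cells and is induced by stretch and YAP. Its single probe read 2837.5 on day 0 and 235 on day 3, 12.1-fold lower (-3.59, pooled SD 0.78), and among the same 9434 genes it ranked 2, next to Thbs1. The other members of its family went the other way: Ankrd23 read 251 and 399.5 (0.67), and Ankrd2 was below the threshold on day 0 and read 185 on day 3, at least 1.52-fold higher. The large difference of Ankrd1 was therefore not shared by its paralogs on this array.

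Cyr61 encodes a secreted CCN protein that binds integrins, and its probes disagreed. The brighter probe read 10410.5 and 3314, 3.14-fold lower on day 3 (-1.65, pooled SD 0.88). The other read 1959 and 1643.25 (-0.25, inside its pooled SD of 0.57). Both were lower, but the size of the difference, and whether it passes 2-fold, depends on the probe. In the mean of both it was -0.95.

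Ctgf encodes the closest relative of Cyr61 and is a standard YAP readout in its own right. It read 17123 on day 0 and 14960 on day 3 (-0.19, inside the pooled SD of 0.88), so it did not accompany Thbs1 and Ankrd1. Other CCN genes varied: Nov (Ccn3) read 260 on day 0 and was below the threshold on day 3, at least 2.13-fold lower; Wisp1 (Ccn4) read 1239 and 788 (-0.65); and Wisp2 (Ccn5) read 5510.5 and 7642 (0.47). Of the 5 CCN genes on the array 2 were at least 2-fold lower and 0 were 2-fold higher, against 10.3% and 12.8% of all detected genes. That count includes the members Cyr61 and Ctgf, whose differences were known when they were chosen. The Cyr61 call rests on its brighter probe alone, so nothing is read from the comparison.

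Lats2, a kinase that phosphorylates YAP and TAZ and is itself a target gene, had 2 probes. They read 902.5 and 507.5 (-0.83) and 640 and 262 (-1.29), against a pooled SD of 0.78, so both were lower on day 3 and only the dimmer passed 2-fold. Its paralog Lats1 read 278 and 149 (-0.90). The LATS genes thus had differences of the same sign. Over the scalings tried Lats1, with raw intensities of 199 and 201, ran from -0.99 to -0.53. The brighter Lats2 probe ran from -0.88 to -0.76.

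Amotl2, an angiomotin-like junction protein that restrains YAP, read 15099.5 and 11034.5 (-0.45). Among its relatives Amotl1 read 10976 and 11940.5 (0.12, with the sign turning under other scalings). Amot read 251 on day 0 and 45 on day 3, under the threshold, and was at least 2.06-fold lower. Amotl2 itself stayed inside the pooled SD of 0.88 but not the median SD of 0.38.

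Axl, a receptor tyrosine kinase of the TAM group, read 29593 and 24853 (-0.25, inside the pooled SD of 0.88). Its ligand gene Gas6 read 3744 and 1874.5, 1.997-fold lower and so just short of 2-fold, and the related ligand gene Pros1 read 3204.75 and 4175.5 (0.38). Of the other receptors, Tyro3 read 328.5 and 235.5 (-0.48) and Mertk did not pass 122 on either day. In this setting none of the 4 detected TAM genes reached 2-fold. Relative to the median of all detected genes, Gas6 passed it under every other scaling tried, down to -1.22 with no normalization. As read with no normalization, without removing that median, Gas6 was at -0.55, short of 2-fold.

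The other thrombospondin genes did not move alike. Thbs2, a close relative, read 53636.5 and 55625 by its brighter probe (0.05, with the sign turning under other scalings) and 49379 and 52049.5 by the other (0.08). Thbs3 was also lower on day 3, with 5489 and 2218.25 (-1.31), and Thbs4 and Comp did not pass 122 on either day.

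**Figure D3:**
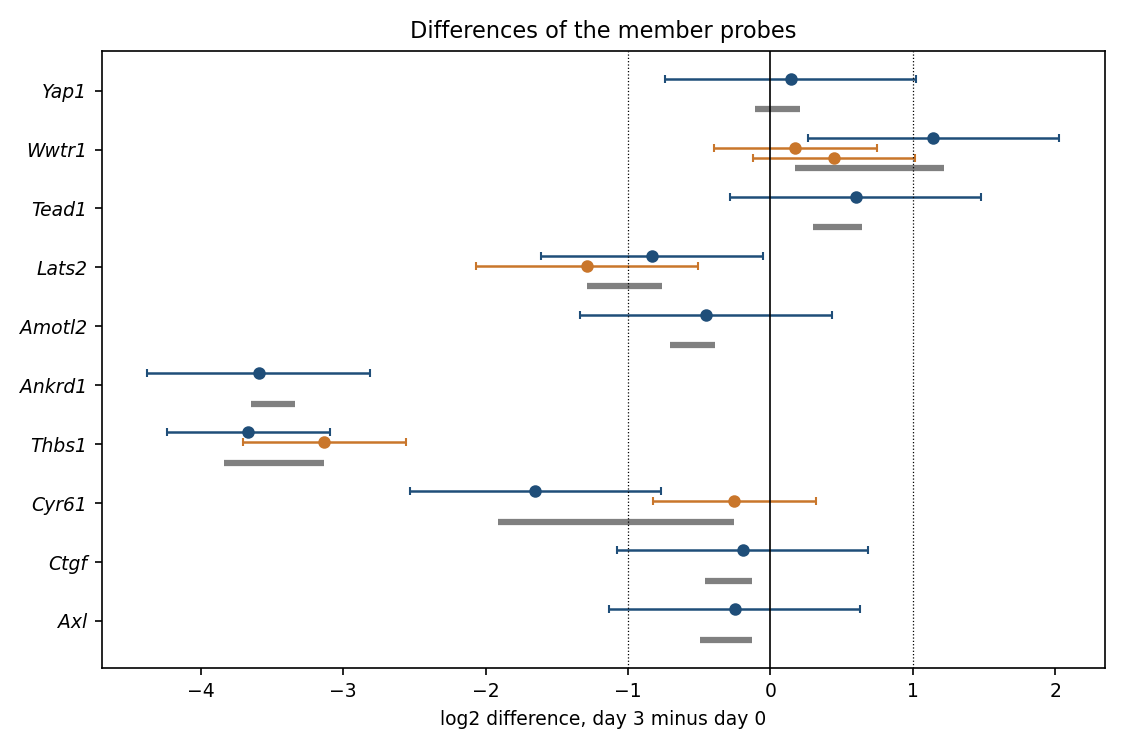
Log2 difference, day 3 minus day 0 (x axis), of each detected probe of the 10 genes; blue is the brightest probe and orange the others, error bars are the pooled repeat-spot SD, dotted lines mark 2-fold, and the grey bar is the range of the gene's value over the settings tried. Thbs1 (-3.84 to -3.13) and Ankrd1 (-3.65 to -3.34) lie far to the left in every setting, while the Cyr61 bar runs from -1.91 to -0.25.

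Other genes of the pathway were taken from lists of its textbook components. In the cascade itself, 11 kinase and scaffold genes were detected, 2 of them at least 2-fold lower on day 3 and 2 at least 2-fold higher. Each count is 18.2%, against 10.3% lower and 12.8% higher among all detected genes. The lower pair were Mob1a (10424.5 and 4853, -1.10) and Mob1b (425.5 and 182.5, -1.22, though -0.96 under median scaling over probes above the threshold on both days and -0.83 in the authors' deposited table), which encode the adaptors that activate LATS. The higher pair were Stk38 (251 and 830, 1.73) and Stk38l (238 and 741, 1.64), LATS-related kinases of the NDR group. Each pair of paralogs therefore had a common direction. Taok3 was at 0.35 by its brighter probe but at 1.65 by the other (300 and 944.5). The count of 2-fold higher genes thus depends on the probe.

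Among all detected genes 10.3% were 2-fold lower and 12.8% higher as read. With each signal below 122 raised to 122 (here called at the bound), the shares were 8.51% and 10.2%. Of 14 detected upstream and junction regulators, 4 were 2-fold lower as read and 0 were higher. At the bound 3 were lower, and the median went from -0.23 to -0.05. Besides Amot these were the phosphatase gene Ptpn14 (810.5 and 355.5, -1.19), the scaffold gene Wwc1 (7459 and 3483.5, -1.10) and the LIM protein gene Ajuba. Ajuba barely exceeded the threshold on day 0 (125.5) and was at least 1.03-fold lower. By its other probe Ptpn14 was at -0.70 (387.5 and 239), short of 2-fold. Wwc2 was at -0.75 by its brighter probe and passed 2-fold by the other (-1.38). None of the 3 detected effectors and partners was 2-fold different. Vgll4, a TEAD cofactor that competes with YAP, read 2066.5 and 1521 (-0.44). The 4 genes of the list for YAP degradation also stayed under 2-fold, from -0.23 for Csnk1d to 0.69 for Fbxw11, with Csnk1e at 0.11 and Btrc at 0.31. Over these lists together 6 of 32 detected genes were 2-fold lower as read, or 5 at the bound, and 2 were higher. Their median of 0.09 changed sign between settings, from -0.14 (unnormalized, minus the median of all genes) to 0.12.

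A further list held 21 genes often named as YAP and TEAD targets, all detected, which were lower and higher by turns. It shares Ptpn14 and Ajuba with the upstream regulators above, so these genes are counted in both lists. As read, 5 of the 21 (23.8%) were 2-fold lower, namely Edn1, Ajuba, Ptpn14, Birc5 and Dlc1. A further 3 (14.3%) were 2-fold higher, namely Tgfb2, Nt5e and Igfbp3. Among all detected genes the shares were 10.3% and 12.8%. Ptpn14 passed 2-fold only by its brighter probe, and Fjx1 only by its dimmer one (-0.93 by the brighter and -1.90 by the dimmer). Birc5, Dlc1, Igfbp3 and Fjx1 were named after their values were seen. Edn1, which encodes the vasoconstrictor endothelin-1, read 247 on day 0 and was below the threshold on day 3, at least 2.02-fold lower. Nt5e, which encodes the CD73 ectonucleotidase, read 2466 and 9313 (1.92). Tgfb2, a growth factor gene, read 773.5 and 2955.75 (1.93) by its brighter probe but 146.5 and 140 (-0.07) by the other. The median of these targets was -0.69, and with each signal below 122 raised to 122, 4 were lower and 2 higher, for a median of -0.58.

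SRF with its MRTF cofactors is the other actin-sensing transcription pathway of fibroblasts and shares many targets with YAP. Of 12 detected genes of that list 6 were 2-fold lower on day 3 as read and 1 was higher, with a median of -1.03. At the bound 5 were lower and the median was -0.86. Among all detected genes 10.3% were lower and 12.8% higher as read, or 8.51% and 10.2% at the bound. The list was chosen with earlier results of these data known, and no test was made. Acta2, smooth muscle α-actin, read 44635.5 and 16335 (-1.45) by its brightest probe, and its other detected probes gave -2.31 and -2.38. Myl9, a myosin light chain gene, read 10940.5 and 3066.5 (-1.84), and Actg2, another smooth muscle actin gene, read 576 and 124 (-2.22). Tagln read 212.5 on day 0 and was below the threshold on day 3, at least 1.74-fold lower. In this list 3 of the 11 genes with a promoter entry held a CArG box and 5 held the TEAD core, against 1.8% and 16.6% of all genes with a promoter. Since the list is of known SRF and MRTF genes, these counts are background rather than a finding.

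**Figure D4:**
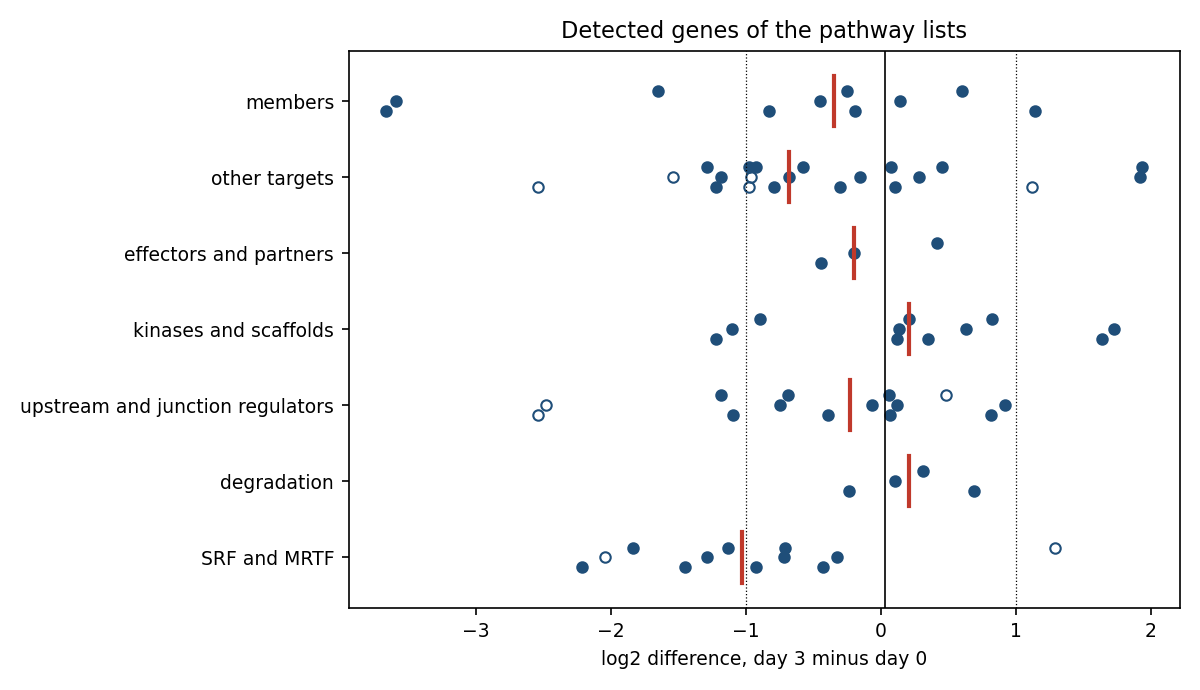
Log2 difference, day 3 minus day 0 (x axis), of each detected gene of 7 lists, by its brightest probe; filled points were above the threshold on both days, open points on 1 day, red bars are list medians, dotted lines mark 2-fold and the solid line is the median of all detected genes (0.03). The medians are -0.35 for the members, -0.69 for the other targets and -1.03 for the SRF and MRTF list.

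Markers were read beside these results, and their part in them was not tested. Among all detected genes 10.3% were 2-fold lower and 12.8% higher as read, or 8.51% and 10.2% at the bound. All 10 fibroblast markers were detected. Of these 3 (Col1a1, S100a4 and Fap) were 2-fold lower as read, or 2 at the bound, and 1 (Fn1) was higher on day 3. Their summed signals were 210215 on day 0 and 186184 on day 3. Vim was saturated on day 0, so the day 0 sum is a lower bound. Of 10 adipocyte markers 4 were detected and 1, Lpl, was 2-fold higher; Adipoq, Fabp4, Plin1, Cidec, Lep and Cfd did not pass 122 on either day, and the summed signal was 9508.5 and 60336.5. That sum follows Lpl, which was saturated on day 3; the other 9 summed to 1028.5 and 1043.5. Only Des was detected among 7 striated muscle markers (summed signal 678 and 1119.75), although Ankrd1 is best known from muscle. Of the 4 smooth muscle markers, Acta2 was 2-fold lower and Myh11 and Cnn1 were 2-fold higher (46346 and 17911.2). That sum follows Acta2, at 44635.5 and 16335. Macrophage markers had 3 of 5 detected, 1 lower (Csf1r) and 1 higher (Itgam), and summed to 1176 and 3887.5. That sum follows Itgam, at 703.5 and 3556, whereas Csf1r read 269.5 and 51.5. Ptprc and Adgre1 were at 10.5 or less on both days. Endothelial markers had 2 of 5 detected, with Kdr lower as read (0 lower at the bound) and Pecam1 higher (480.5 and 673). Epithelial markers had 1 of 4, with Epcam at 2 or less (305.5 and 191).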

How the data were processed

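The deposited per-sample tables hold 1 linear intensity for each of 39200 spots on a one-colour array, per the file headers and the values; the labels' protocols say that 1 µg of total RNA was amplified and labelled with Cy5. For the scanner, its software and the background step, the sources used here name none. The authors' deposited table for the series holds normalized intensity values for 11482 probes and served as an alternative.

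Intensities of the 29922 gene probes were quantile normalized (limma 3.58.1, R 4.3.3), floored at 10 and put on the log2 scale. A signal under the threshold of 122, the median of the gene probes, or of 65000 and more gives a lower bound for a fold. Symbols came from the platform annotation: 21020 probes had 1, 8902 none and 0 several; 17558 were current, 3410 were updated as synonyms through RefSeq (GRCm38.p6) and 52 kept. The brightest probe stood for its gene. The members, gene lists and alternatives were chosen with earlier results of these data known. All members and their paralogs were named, and otherwise the 4 largest differences of each list. Genes named beyond that rule, among them Taok3, Wwc2, Fjx1 and Mkl1, were added after their values were seen. With 2 samples no likeness of pattern between genes could be computed.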

Additional observations from a re-analysis of the deposited data

How the results depend on the processing

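No paired analysis was possible because each day had 1 sample. Values under median scaling over all gene probes and with no normalization are relative to the median of all detected genes there (-0.49 and 0.67). The count of members at least 2-fold lower was 3 in each of the 13 alternatives, but not always of the same genes: with the mean of all probes Lats2 was at -1.06 and Cyr61 at -0.95, and with the dimmest detected probe they were at -1.29 and -0.25, so Lats2 took the place of Cyr61 beside Thbs1 and Ankrd1. As read under median scaling over all gene probes, without removing the shift, 5 members were 2-fold lower. The median of members ran from -0.60 to -0.25; as read it was -1.02 under that scaling and 0.07 with no normalization. Members at least 2-fold higher fell from 1 to 0 under median scaling over all gene probes, no normalization (2 as read, without removing the shift), median scaling over gene probes above threshold on both days, the mean of all probes of a gene, and, both added after the data were seen, the brightest unsaturated probe and the dimmest detected probe; the gene concerned is Wwtr1, with differences of 0.17 to 1.22. In the 3 scalings its value comes from the probe saturated on day 3 and is a lower bound, as is the 1.22 from the authors' table. The mean of all probes includes that probe and is a lower bound too. The loss of the call is therefore shown only by the brightest unsaturated probe and the dimmest detected probe. As read, other targets 2-fold lower numbered 12 under median scaling over all gene probes and 0 with no normalization, against 5; Hippo pathway genes numbered 11 lower under the former, and 1 lower with 9 higher under the latter, against 6 and 2. Hippo pathway genes 2-fold higher numbered 4 under median scaling over gene probes above threshold on both days, against 2. In the authors' table, which holds fewer of these genes, 3 of 16 other targets were 2-fold lower, against 5 of 21, and 3 of 27 Hippo genes, against 6 of 32. No called difference of a member reversed. With 1 array a day, variation between cultures was not measured.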

Other observations

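The gap between the Cyr61 probes was set beside the gaps of other genes with several detected probes. Among 1968 such genes, the median gap between the highest and lowest log2 difference was 0.64, and 18.0% had a gap of at least the 1.40 of Cyr61. Probes above 122 on only 1 day were included, and the genes were not matched for signal or number of probes. The share therefore does not show whether a gap of 1.40 is ordinary for probes as bright as those of Cyr61. The gaps of the other members with several detected probes were 0.97 for Wwtr1 (reached by 31.9% of those genes), 0.53 for Thbs1 (57.3%) and 0.46 for Lats2 (61.5%). Where the probes lie in the transcripts was not analysed here.

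The TEAD core was found in the promoters of 4 of 14 other listed targets with an entry (28.6%) and of 9 of 29 Hippo pathway genes (31.0%), against 16.6% of all genes with a promoter and 7 of 7 members. These are counts over short lists, the target and Hippo lists share Ptpn14 and Ajuba, and no test was made.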
